A study of Mus musculus with 6 samples.

Results

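The citric acid cycle oxidizes acetyl-CoA in the mitochondrial matrix and passes the electrons to the respiratory chain. In liver it also exchanges carbon with gluconeogenesis, fatty acid synthesis and amino acid breakdown, and several of its reactions have a second enzyme in the cytosol. The 9 enzyme genes described here were Cs, Idh1, Idh2, Ogdh, Suclg1, Sdha, Fh1, Mdh1 and Mdh2, chosen by symbol. Each matched 1 of the 29981 rows of the deposited table, and 8 of the 9 reached the mean of 10 normalized reads that was required for testing. The row of Mdh1 also names a second transcript, AK046369, so its value is shared.

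Liver RNA was sequenced from C57BL/6 mice with Abca1 deleted in hepatocytes by a Cre recombinase under the Albumin promoter (HSKO, n = 3) and from floxed controls, which the labels call wildtype (WT, n = 3). Abca1 exports cholesterol and phospholipid from cells. All mice had been without food between 9 am and 1 pm before the livers were taken, and the sources used here give no age. The design asks how liver transcripts differ between livers with and without Abca1 in hepatocytes. The labels do not say that every library is a separate mouse, and p-values here cover only library-to-library variation, which may be technical.

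The libraries were shallow, and their composition differed between the groups. Abca1 itself had 2, 1 and 2 reads in the HSKO libraries, against 20, 36 and 34 in the WT libraries, so all 6 matched their labels. Recovered reads numbered 631020 to 702013 in HSKO and 838637 to 933319 in WT, and 1 row, BC071253, took 46.2% to 57.8% of them in HSKO and 43.1% to 52.9% in WT. Of the remaining reads, 16 hepatocyte markers took 2.83% ± 0.346 in HSKO and 5.98% ± 1.11 in WT (SD, n = 3, exact permutation p = 0.1, two-sided, the smallest that 3 against 3 can give). Among markers of other liver cells, Krt19 and Krt7 of cholangiocytes and Cd3e, Ms4a1 and Nkg7 of lymphocytes had 0 reads throughout, while 7 stellate cell and fibroblast markers summed to 11.7 to 20.4 normalized reads in HSKO and 32.1 to 36.9 in WT. Summed normalized reads of 9 myeloid markers were 24.8 to 62.5 in HSKO and 36.6 to 86.2 in WT, and those of 6 endothelial markers 8.72 to 29.2 in HSKO and 27.0 to 33.3 in WT. Cholangiocyte markers summed to 5.32 to 17.5 in HSKO and 10.7 to 15.8 in WT, erythroid markers to 13.1 to 19.9 and 13.7 to 19.1, and lymphocyte markers to 0 and to at most 1.13. In such bulk samples, fewer cells of a type and less RNA per cell cannot be told apart.

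The sequences printed here belong to the genes that were lower in HSKO livers, Idh1, Sdha and Mdh1, and to Mdh2, the mitochondrial partner of Mdh1, which was not called. They are RefSeq promoters on GRCm38.p6, from 250 bases before to 50 bases after the annotated start, read along the gene's strand. Capitals mark letters that match 1 of 8 motifs on either strand.
Idh1, chr1:65186430-65186729, minus strand: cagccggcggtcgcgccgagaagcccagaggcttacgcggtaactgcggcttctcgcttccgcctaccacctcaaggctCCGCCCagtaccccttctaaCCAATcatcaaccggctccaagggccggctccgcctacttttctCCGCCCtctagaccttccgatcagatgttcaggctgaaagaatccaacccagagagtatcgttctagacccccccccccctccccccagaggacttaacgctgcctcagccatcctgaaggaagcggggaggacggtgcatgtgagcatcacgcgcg
Sdha, chr13:74350191-74350490, minus strand: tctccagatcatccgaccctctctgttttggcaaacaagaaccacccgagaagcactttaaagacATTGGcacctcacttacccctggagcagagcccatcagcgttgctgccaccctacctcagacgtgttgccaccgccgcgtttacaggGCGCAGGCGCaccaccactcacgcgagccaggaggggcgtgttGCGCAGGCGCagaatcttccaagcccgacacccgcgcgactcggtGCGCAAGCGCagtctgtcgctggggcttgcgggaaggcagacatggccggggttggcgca
Mdh1, chr11:21571885-21572184, minus strand: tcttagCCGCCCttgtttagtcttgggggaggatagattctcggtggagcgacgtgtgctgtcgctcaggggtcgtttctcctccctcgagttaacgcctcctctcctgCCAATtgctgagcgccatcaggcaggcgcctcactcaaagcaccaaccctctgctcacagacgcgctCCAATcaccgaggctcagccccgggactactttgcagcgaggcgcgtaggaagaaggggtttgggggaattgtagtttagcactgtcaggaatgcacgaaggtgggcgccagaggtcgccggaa
Mdh2, chr5:135778399-135778698, plus strand: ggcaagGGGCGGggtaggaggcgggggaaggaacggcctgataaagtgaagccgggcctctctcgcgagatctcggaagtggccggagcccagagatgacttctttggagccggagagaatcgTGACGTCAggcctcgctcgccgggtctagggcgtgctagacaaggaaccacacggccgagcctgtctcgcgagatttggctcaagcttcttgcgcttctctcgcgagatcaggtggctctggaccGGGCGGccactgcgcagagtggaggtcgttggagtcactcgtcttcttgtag

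The promoter of Sdha held 3 matches to the motif of NRF1, a factor known for driving nuclear genes of mitochondria. The letters searched were GCGCA, any base and GCGC. The matches began 98, 55 and 10 bases before the start. Each of the 9 enzymes has at least 1 promoter in the table, and Idh1 and Ogdh have several, 15 in all. An enzyme was counted if any of its promoters matched, whereas shares are per promoter, so the counts and shares are not directly comparable. Sdha alone among the 9 had this motif, which occurred in 4.60% of the 32851 promoters in the table and at least 3 times in 0.0974%. The GC box GGGCGG was found in 7 of the 9 enzymes and in 35.7% of all promoters, and the CCAAT box, CCAAT, in 7 of the 9 and in 37.4%. In the printed sequences the GC box was in Idh1, Mdh1 and Mdh2, and the CCAAT box in Idh1, Mdh1 and Sdha. The cAMP response element TGACGTNA was in Mdh2 and Ogdh and in 2.93% of promoters. TCAAGGTCA of oestrogen-related receptors, CCGGAAG of ETS factors, the direct repeat of AGGTCA with 1 base between, known from PPAR and RXR dimers, and the sterol element of SREBP were in none of the 9 and in 0.423%, 8.86%, 0.0396% and 0.0913% of promoters. No motif was common to Idh1, Sdha and Mdh1 and absent from the 5 enzymes that were tested and not called.

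Idh1, Sdha and Mdh1 were lower in HSKO livers and the other 5 tested enzymes were not called in either direction. The 3 called genes were at 0.548, 0.568 and 0.612 of their WT means, and for each the highest HSKO library lay below the lowest WT library. For Sdha these were nearly level, at 45.1 and 45.4, and 1 read was worth 1.45 in HSKO replicate 2. The remaining 5, Idh2, Ogdh, Suclg1, Fh1 and Mdh2, had ratios of HSKO to WT means between 0.884 and 1.15. Lower calls thus made up 3 of 8, against 11.6% of all 2750 rows tested, and higher calls 0 of 8, against 28.5%. Calls in either direction covered 40.1% of all rows. None of the 8 was higher by limma without adjustment at 0.05, nor by edgeR or DESeq2 (0 each). The median log2 fold change of the 8 was -0.15, beside 0.07 over all rows tested. Values without overlap between the groups, with HSKO lower, were found for the same 3 tested enzymes and for 20.1% of all rows tested. In either direction the groups did not overlap for 51.5% of rows. Hepatocyte markers moved the same way, with 8 of 16 called lower and a median of -0.62, and their part in these differences was not tested. Leaving out 1 library left 1 to 7 of the 16 lower, with 1 without HSKO replicate 1 or 2 and 4 without WT replicate 2.

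**Figure D1:**
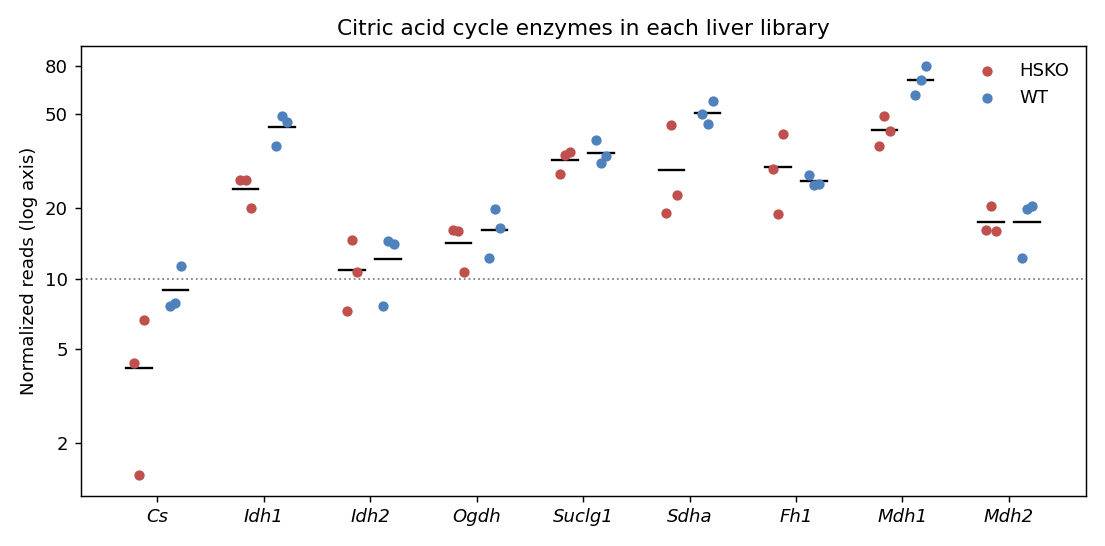
Normalized reads of the 9 citric acid cycle enzymes in each library on a log axis, with HSKO libraries left of WT libraries and a bar at each group's mean. The dotted line is the mean of 10 required for testing. The groups separate for Idh1, Sdha, Mdh1 and Cs, and a single HSKO library brings Sdha close to WT at 45.1.

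Idh1, the cytosolic NADP-dependent isocitrate dehydrogenase that makes 2-oxoglutarate and NADPH, was lower in HSKO livers. It lies on chromosome 1 from 65158616 to 65186500. Its normalized reads were 26.3, 26.2 and 19.9 in HSKO, from 18, 18 and 15 reads, against 36.6, 49.4 and 46.2 in WT, from 48, 75 and 82 reads. The HSKO libraries lay close together, all below the lowest WT library. The log2 fold change was -0.84 (SE 0.27, adjusted p = 0.0173). Counting error alone gave the ratio of HSKO to WT an exact 95% interval of 0.389 to 0.736. Leaving out HSKO replicate 3 gave a log2 fold change of -0.72 (adjusted p = 0.0541), WT replicate 2 -0.76 (0.0855) and WT replicate 3 -0.80 (0.0568).

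Its mitochondrial counterpart Idh2, which makes NADPH in the matrix, lies on chromosome 7 from 80094846 to 80115392. It had 7.31, 14.5 and 10.6 normalized reads in HSKO and 7.63, 14.5 and 14.1 in WT, from 5 to 10 and 10 to 25 reads. The groups overlapped almost fully. Its log2 fold change of -0.14 had a 95% interval of -0.97 to 0.69, which includes the value of Idh1 (adjusted p = 0.795). Within a library, the log2 ratio of Idh1 to Idh2 was 1.72, 0.81 and 0.85 in HSKO and 2.12, 1.70 and 1.65 in WT. HSKO replicate 1 lay among the WT libraries. The difference was -0.70 (SE 0.33, exact permutation p = 0.3, adjusted over the 2 isoenzyme pairs 0.3), which is not beyond the spread between libraries. It lay between -0.997 and -0.54 with other pseudocounts and with each library left out. The permutation p was 0.1 with a pseudocount of 10 and without HSKO replicate 1, and 0.3 or 0.4 in the other settings.

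Sdha, the flavoprotein subunit of succinate dehydrogenase, which also serves as complex II of the respiratory chain, was lower as well and varied widely among the HSKO libraries. The gene is on chromosome 13 from 74322254 to 74350280. Its normalized reads were 19.0, 45.1 and 22.6 in HSKO, against 50.4, 45.4 and 57.0 in WT. HSKO replicate 2, with 31 reads, was nearly level with WT replicate 2, with 69 reads, and the other HSKO libraries had 13 and 17 reads. The log2 fold change was -0.89 (SE 0.30, adjusted p = 0.0252), and the counting interval of the ratio was 0.416 to 0.745. With HSKO replicate 1, HSKO replicate 3 or WT replicate 3 left out, the adjusted p was 0.128, 0.0748 or 0.0841.

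Of the other subunits of the same complex, only Sdhb reached the mean required for testing, and it was not called. Sdhb, the iron-sulphur subunit, had 26.3, 36.4 and 33.2 normalized reads in HSKO and 24.4, 25.7 and 31.0 in WT. Its log2 fold change was 0.23 with a 95% interval of -0.33 to 0.79 (adjusted p = 0.503). The membrane anchors Sdhc and Sdhd were too low to test, at 6.51 ± 2.54 and 4.24 ± 1.46 normalized reads in HSKO and 5.27 ± 3.75 and 10.9 ± 4.51 in WT (SD, n = 3). For Sdhd all HSKO libraries, with 2, 4 and 3 reads, lay below the WT libraries, with 9, 24 and 18 reads. Such a separation with HSKO lower was found for 20.1% of all rows tested. The counting interval of its ratio was 0.166 to 0.784. The difference between Sdha and Sdhb was not tested.

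Mdh1, the cytosolic malate dehydrogenase of the malate-aspartate shuttle, had the highest mean of the 9 in normalized reads in both groups and was lower in HSKO livers. The gene lies on chromosome 11 from 21556787 to 21572367, and its exons overlap those of Wdpcp on the opposite strand. Its row, shared with AK046369, had 36.5, 49.4 and 42.6 normalized reads in HSKO, from 25, 34 and 32 reads, against 60.3, 69.8 and 80.1 in WT, from 79, 106 and 142 reads. The log2 fold change was -0.70 (SE 0.25, adjusted p = 0.0336), with a counting interval of the ratio of 0.473 to 0.763. The adjusted p was 0.104 without HSKO replicate 1, 0.0566 without HSKO replicate 3, 0.0992 without WT replicate 2 and 0.111 without WT replicate 3.

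Mdh2, the matrix enzyme that regenerates oxaloacetate, was at 16.1, 20.4 and 15.96 normalized reads in HSKO and 12.2, 19.7 and 20.3 in WT. It lies on chromosome 5 from 135778480 to 135790398. Its log2 fold change was 0.03 with a 95% interval of -0.62 to 0.68 (adjusted p = 0.949). The log2 ratio of Mdh1 to Mdh2 within a library was 1.14, 1.24 and 1.36 in HSKO, against 2.21, 1.77 and 1.93 in WT. All 3 HSKO libraries lay below all 3 WT libraries. The difference was -0.73 (SE 0.15) with an exact permutation p of 0.1, the smallest that 3 against 3 can give, and 0.2 adjusted over the 2 pairs. It lay between -0.83 and -0.60 with other pseudocounts and with each library left out.

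Suclg1, Fh1 and Ogdh, which act in the matrix on succinyl-CoA, fumarate and 2-oxoglutarate, showed no difference beyond the spread. Suclg1, the alpha subunit of succinyl-CoA synthetase on chromosome 6, had 27.8, 33.4 and 34.6 normalized reads in HSKO and 38.9, 30.9 and 33.3 in WT. Its log2 fold change was -0.10 with a 95% interval of -0.65 to 0.44, the narrowest among the uncalled enzymes. Fh1, the fumarase on chromosome 1 from 175600374 to 175625635, was at 29.2, 18.9 and 41.2 in HSKO and 27.5, 25.0 and 25.4 in WT. The HSKO libraries of Fh1 spread on either side of the WT libraries, with a log2 fold change of 0.13 (95% interval -0.49 to 0.74). Ogdh, the 2-oxoglutarate dehydrogenase subunit on chromosome 11, was at 16.1, 15.995 and 10.6 in HSKO and 12.2, 19.7 and 16.4 in WT, a log2 fold change of -0.16 (95% interval -0.85 to 0.52). Adjusted p-values of these 3 genes lay between 0.709 and 0.769.

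Cs, the citrate synthase that starts the cycle by joining acetyl-CoA to oxaloacetate, was below the required mean and stayed out of the main test. The gene is on chromosome 10 from 128337734 to 128362479. Its normalized reads were 4.38, 1.45 and 6.65 in HSKO, from 3, 1 and 5 reads, against 7.63, 7.90 and 11.3 in WT, from 10, 12 and 20 reads. All HSKO libraries lay below the WT libraries, as was the case for 20.1% of all rows tested. The ratio of HSKO to WT reads, corrected for size factors, was 0.464 with a counting interval of 0.199 to 0.968. In a fit without the filter on low values its log2 fold change was -1.07 and did not pass (adjusted p = 0.219). A difference in Cs was therefore not established at this depth.

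**Figure D2:**
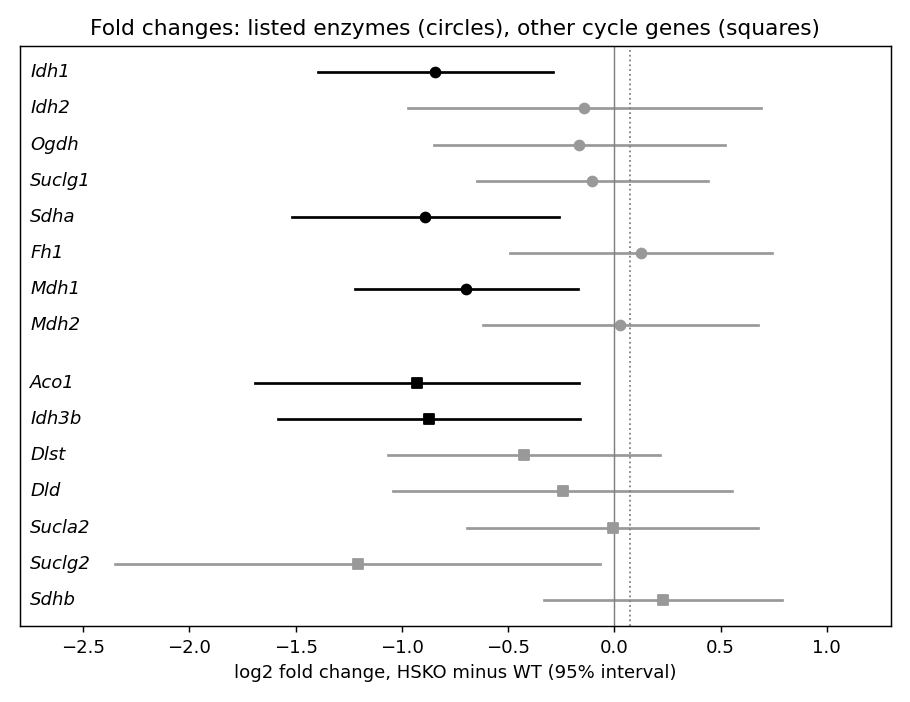
Log2 fold changes, HSKO minus WT, with 95% intervals from limma for the 8 tested enzymes (circles) and 7 other tested genes of the cycle (squares). Black marks an adjusted p below 0.05 and the dotted line the median of all rows tested, 0.07. Intervals span about 1 log2 unit or more, so differences the size of that in Mdh1, -0.70, lie inside the intervals of Idh2 and Ogdh.

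Levels of different genes were compared per kilobase of transcript, using GENCODE lengths. In HSKO livers the order was Suclg1, Mdh1, Mdh2, Fh1, Idh1, Sdha, Idh2, Ogdh and Cs, with 21.0 ± 2.40 normalized reads per kb for Suclg1, 20.2 ± 3.04 for Mdh1 and 1.42 ± 0.890 for Cs. In WT livers it was Mdh1, Suclg1, Idh1, Sdha, Mdh2, Fh1, Idh2, Ogdh and Cs, with 33.0 ± 4.67 for Mdh1, 22.6 ± 2.70 for Suclg1 and 3.05 ± 0.695 for Cs (SD, n = 3 each). In HSKO the library ranges of Suclg1 and Mdh1 overlapped, as did those of neighbours from Mdh2 through Idh2. In WT Mdh1 stood above Suclg1 in every library, and Sdha above Mdh2, while Suclg1, Idh1 and Sdha overlapped as neighbours. Idh1 and Sdha, at 19.1 ± 2.88 and 17.6 ± 1.999 per kb in WT, were at 10.5 ± 1.58 and 9.96 ± 4.87 in HSKO, where they overlapped with Mdh2 and Fh1.

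**Figure D3:**
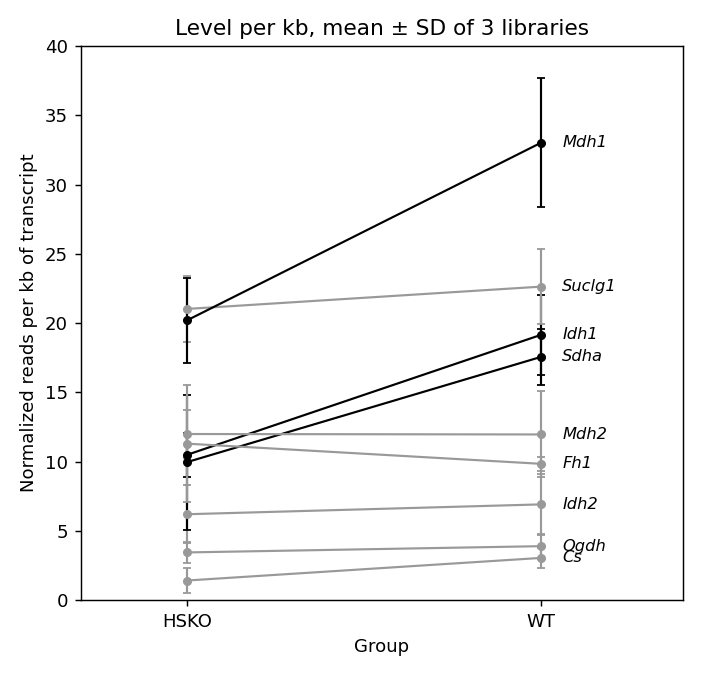
Normalized reads per kb of transcript for the 9 enzymes, as mean ± SD of 3 libraries, in HSKO on the left and WT on the right. Black marks the called genes Idh1, Sdha and Mdh1. Mdh1 stands at 20.2 in HSKO, beside Suclg1, and at 33.0 in WT, above every other enzyme.

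The size of these differences depended on how libraries were scaled. Over 7 scalings the log2 fold change lay between -1.50 and -0.31 for Idh1, between -1.55 and -0.36 for Sdha and between -1.36 and -0.16 for Mdh1. Each of the 3 was called lower in 6 of the 7 and lost its call with scaling to the 16 hepatocyte markers, where adjusted p was 0.441, 0.430 and 0.690. That scaling placed the median of all rows at 0.59, and scaling to total reads placed it at -0.57. Relative to the median of all rows, Idh1 lay between -1.04 and -0.90, Sdha between -1.11 and -0.92 and Mdh1 between -1.01 and -0.75 in all 7. Most of these scalings multiply a whole library by 1 factor and so move a gene and the median together, which leaves little room for this distance to vary. The 5 uncalled enzymes lay between -0.32 and 0.11 relative to that median. With scaling to total reads Suclg1 was also called lower (adjusted p = 0.0338). The scalings share 1 set of reads.

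**Figure D4:**
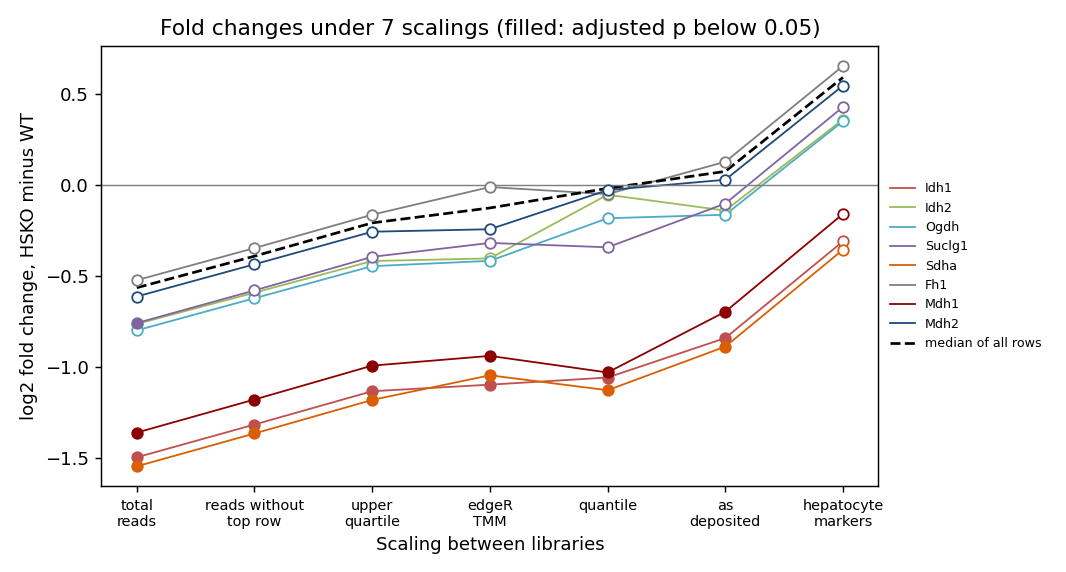
Log2 fold changes of the 8 tested enzymes under 7 ways of scaling libraries, with filled points at an adjusted p below 0.05 and the median of all rows as a dashed line. Idh1, Sdha and Mdh1 are filled points in 6 of the 7 scalings and open points with scaling to hepatocyte markers, where the median line is at 0.59.

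Summed over the 9 enzymes, reads took a smaller share in HSKO than in WT, as did reads of the hepatocyte markers. The enzymes took 0.0454%, 0.0523% and 0.0444% of reads other than BC071253 in HSKO libraries and 0.0791%, 0.0845% and 0.113% in WT libraries. Per 1000 reads of hepatocyte markers there were 17.6, 19.5 and 13.8 enzyme reads in HSKO, against 15.2, 15.4 and 15.6 in WT. The share was lower in every HSKO library than in every WT library, whereas the ratio to hepatocyte markers overlapped. The mean share in HSKO was 0.514 of that in WT, while the sum of deposited normalized reads, 204 ± 21.3 in HSKO and 279.9 ± 25.4 in WT (SD, n = 3), gave 0.730. Scaling to reads without BC071253 placed the median of all rows at -0.39, with 913 called lower and 429 higher. Mdh1 made up the largest part of the sum, so the sum weighs the abundant rows most. The sum includes the cytosolic enzymes Idh1 and Mdh1 and so does not describe the matrix enzymes alone. Among WT libraries the enzyme share and the marker share both rose from replicate 1 to replicate 3. Within HSKO the shares did not rise together. HSKO replicate 3 had the highest marker share of reads other than BC071253, 3.23%, and the lowest enzyme share, 0.0444%. That enzyme share lay inside the counting interval of HSKO replicate 1, 0.0378% to 0.0541%. Whether the shares go together within a group was not tested.

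**Figure D5:**
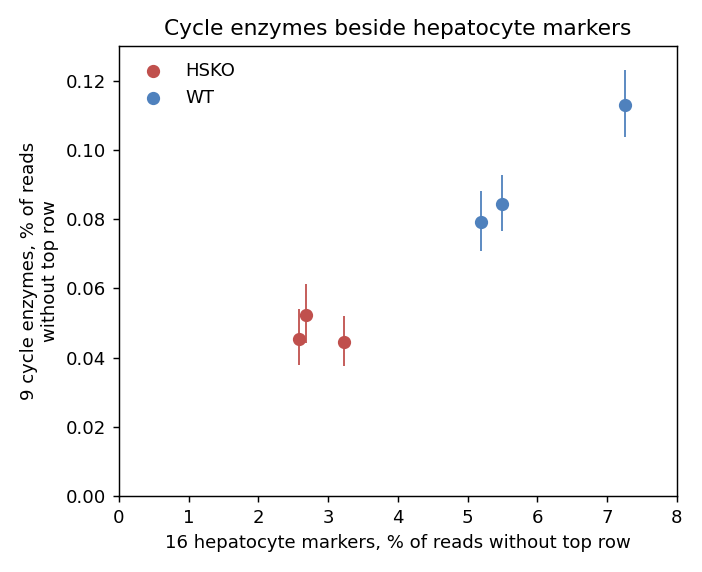
Share of reads other than BC071253 taken by the 9 enzymes, with exact 95% counting intervals, against the share taken by 16 hepatocyte markers, 1 point per library. HSKO libraries sit at 0.0444% to 0.0523% and WT libraries at 0.0791% to 0.113%, and both shares are lower in HSKO.

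Among 17 other enzymes, subunits and assembly factors of the cycle, 8 were tested, of which Aco1 and Idh3b were lower in HSKO livers. Over all rows tested, 11.6% were lower and 28.5% higher. The count of higher genes was 0 by limma, also without adjustment, and 0 by edgeR and DESeq2. Their median log2 fold change was -0.44. Aco1, the cytosolic aconitase that doubles as an iron regulatory protein, had 14.6, 7.27 and 7.98 normalized reads in HSKO and 21.4, 13.2 and 24.3 in WT, with overlap between the groups (log2 fold change -0.93, adjusted p = 0.0484). Idh3b, a subunit of the NAD-dependent isocitrate dehydrogenase, was at 8.77, 8.72 and 10.6 in HSKO and 14.5, 17.1 and 23.1 in WT (log2 fold change -0.87, adjusted p = 0.0473). Its exons overlap those of Nop56 on the opposite strand. The other subunits of that enzyme, Idh3a and Idh3g, were too low to test.

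Those calls were near the threshold. In HSKO the mean was 9.96 for Aco1 and 9.38 for Idh3b, below the required 10, so both passed the filter through the WT libraries. Aco1 was not called without HSKO replicate 2 or 3 or without WT replicate 1 or 3 (adjusted p between 0.0985 and 0.219), nor Idh3b without HSKO replicate 1 or 2 or without WT replicate 2 or 3 (between 0.0744 and 0.234). DESeq2 gave them adjusted p-values of 0.0748 and 0.0782, scaling to hepatocyte markers 0.424 and 0.440, and quantile normalization 0.0505 for Aco1. Over 6 other scalings, 0 to 5 of the 8 were lower and 0 to 1 higher. Suclg2 and Sucla2, the GTP- and ATP-forming beta subunits that pair with Suclg1, were at 1.46, 13.1 and 18.6 and at 16.1, 14.5 and 22.6 normalized reads in HSKO, against 13.7, 24.3 and 21.4 and 11.4, 24.3 and 19.2 in WT. Neither passed (adjusted p = 0.0831 and 0.985). Dlst and Dld, which complete the 2-oxoglutarate dehydrogenase complex with Ogdh, had log2 fold changes of -0.43 and -0.24 and did not pass (adjusted p = 0.276 and 0.631). The row of Dlst also names a second transcript.

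Where pyruvate enters, 3 of 14 listed genes were tested and Pcx was lower, beside 11.6% of all rows. Pcx, the pyruvate carboxylase that supplies oxaloacetate, was at 35.1, 33.4 and 21.3 normalized reads in HSKO and 40.4, 57.3 and 49.1 in WT (log2 fold change -0.71, adjusted p = 0.0467). It was not called without HSKO replicate 2 or 3 or without WT replicate 2 or 3 (adjusted p between 0.0596 and 0.185), nor with scaling to hepatocyte markers (log2 fold change -0.17, adjusted p = 0.711). Pdha1, a subunit of pyruvate dehydrogenase, was at 22.9 ± 5.93 in HSKO and 18.5 ± 2.79 in WT (adjusted p = 0.464). Pdhb, its partner subunit, was below the required mean at 4.202 ± 1.21 in HSKO and 11.8 ± 3.09 in WT (SD, n = 3), and was not tested.

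Of 24 genes that feed or drain the cycle or carry its intermediates, 13 were tested, 4 were lower and 1 was higher in HSKO livers, beside 11.6% lower and 28.5% higher over all rows tested. Acly, which splits exported citrate in the cytosol, was at 9.51 ± 3.32 in HSKO and 26.5 ± 6.48 in WT, and Me1, the cytosolic malic enzyme, at 5.30 ± 5.55 and 19.996 ± 5.45 (SD, n = 3, adjusted p = 0.00302 and 0.00499). Slc25a13, the mitochondrial aspartate-glutamate carrier, was at 13.7 ± 3.25 and 29.4 ± 4.05, and Glud1, the glutamate dehydrogenase that yields 2-oxoglutarate, at 64.9 ± 17.4 and 106 ± 18.3 (adjusted p = 0.00756 and 0.0350). The higher gene was Pck1, which takes oxaloacetate to phosphoenolpyruvate, at 584 ± 28.9 in HSKO and 366 ± 31.3 in WT (adjusted p = 0.0201). Its log2 fold change was 0.67. The call held with scaling to hepatocyte markers (1.22) but not with the 5 other scalings, at 0.45 with edgeR, 0.37 with upper quartile, 0.18 with reads without BC071253, 0.01 with quantile normalization and -0.0003 with total reads, nor without the filter on low values (adjusted p = 0.0708). DESeq2 gave Pck1 0.52 (adjusted p = 0.0342). The aminotransferases Got1 and Got2 of the malate-aspartate shuttle were not called, with Got1 at 16.1, 30.5 and 66.5 normalized reads in HSKO and 11.4, 25.7 and 27.1 in WT (log2 fold change 0.65, adjusted p = 0.200). The citrate carrier Slc25a1 was at 13.2 ± 0.108 and 19.96 ± 3.38 and did not pass (adjusted p = 0.147).

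Acly, Me1 and Slc25a13 were called with each library left out. Acly had only 9, 6 and 5 reads in the HSKO libraries and Me1 only 2, 8 and 1. Both had HSKO means below the required 10 and passed the filter through the WT libraries, so the size of these differences is imprecise. With scaling to hepatocyte markers Me1 was called (adjusted p = 0.0325), whereas Acly (0.0550), Slc25a13 (0.179) and Glud1 (0.694) were not. Glud1 was not called without HSKO replicate 1 or 3 or without WT replicate 2 or 3 (adjusted p between 0.0898 and 0.137), and Pck1 not without HSKO replicate 2 (0.0866) or WT replicate 2 (0.0742). Of 26 genes of mitochondrial structure and biogenesis, 12 were tested, and Hspd1, the matrix chaperonin, was lower at 25.6 ± 4.76 in HSKO and 57.3 ± 13.1 in WT (SD, n = 3, adjusted p = 0.00336). This 1 of 12 stands beside 11.6% lower over all rows, and the call was lost with scaling to hepatocyte markers (log2 fold change -0.59, adjusted p = 0.116). The other 11 were not called and the median of the 12 was -0.39. Higher genes numbered 0 of 12 by limma, with or without adjustment, and 0 by edgeR and DESeq2. Over 6 other scalings 0 to 8 of the 12 were lower, as were 1 to 10 of the 13 genes that feed or drain the cycle.

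The rows whose pattern over the 6 libraries was most like the mean log2 level of the 8 tested enzymes included Ghr, Eif5, Eif4g2 and Akr1d1, among 2290 rows with 1 gene symbol. Their Pearson r lay between 0.976 and 0.988, over 6 libraries that fall into 2 groups. The mean log2 level of the enzymes was 4.42, 4.73 and 4.51 in HSKO and 4.70, 4.97 and 5.004 in WT. HSKO replicate 2 was thus above WT replicate 1, and the groups overlapped in this mean.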

How the data were processed

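Liver RNA sequencing libraries of mice, 6 in all with 3 per group, were analysed. The deposited table holds a normalized signal per gene row, which the authors made by dividing gene-level reads by 1 size factor per library. FastQC 0.11.3, Bowtie, RSEM 1.2.9, DESeq 1.16.0 and the mm10 build are named without a role, per the submitters' processing notes. For the counting annotation, read filters and strand setting, the sources used here give nothing. Division by each library's step, the worth of a single read, gave whole reads for 100% of values within 0.001.

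On the log2(value + 1) scale, differences were fitted with limma 3.58.1 (R 4.3.3) and a mean-variance trend, over the 2750 of 29981 rows with a mean of at least 10, HSKO minus WT, 2-sided. P-values were adjusted by Benjamini-Hochberg over all these rows, with calls at 0.05, and adjusted p-values are limma's unless another tool is named. The procedure was tested on simulated data. These had as many raised as lowered rows and no difference in composition between groups, and their changes were larger than those of the called enzymes. The simulation therefore does not show how calls behave for smaller changes or when composition differs. edgeR 4.0.16 (quasi-likelihood, TMM) and DESeq2 1.42.0 on the recovered whole reads, other pseudocounts, filters and scalings, the replicate number as a block and each library left out were alternatives. Scaling to reads without the most abundant row was added after the data were seen. Ratios within a library were compared with exact permutation tests.

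The members, gene lists, motifs and tests were chosen with earlier results of these data known. All 9 listed enzymes were named. Of the other pathway genes, 21 fixed ones were eligible to be named, with up to 4 further called genes per list. Coordinates and transcript lengths are those of GENCODE M21 (GRCm38), with the longest principal protein-coding transcript as a gene's length. Promoters are RefSeq's, on GRCm38.p6. Intervals of read ratios and shares are exact and cover counting error only. Replicate libraries of a group differed by more than counting error, with a chi-square per degree of freedom of 2.12 to 8.68. These intervals are therefore too narrow for variation between libraries. Of the fixed list genes, Adgre1 was found under an older symbol, and Mpc2 and Hba-a1 matched no row. Some genes that these rules would name are not reported here.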

Additional observations from a re-analysis of the deposited data

How the results depend on the processing

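The 3 lower enzymes numbered 0 without the filter on low values, 1 with a minimum mean of 50, where only Mdh1 was tested, 0 with scaling to hepatocyte markers and 0 to 3 with 1 library left out (0 without HSKO replicate 3 or WT replicate 3), and none was higher under the 18 alternatives. Without the filter 13807 rows were tested. Deviations of same-numbered libraries were not correlated (r of -0.03, -0.03 and -0.02), which does not settle whether the numbers mark pairs. With the replicate number as a block 2 enzymes were lower, with Mdh1 at an adjusted p of 0.0508. Aco1, Idh3b and Pcx were then not called (0.0508, 0.0620 and 0.0622). Rows called lower and higher, 320 and 783 as deposited, were 703 and 580 with upper quartile scaling, 502 and 595 with quantile normalization, 601 and 684 with edgeR, 1044 and 221 with total reads, 913 and 429 with reads without BC071253, 37 and 1145 with hepatocyte markers, 211 and 624 without the filter and 118 and 391 at a minimum mean of 50. With 1 library left out they were 157 to 313 and 581 to 822. The log2 fold change turned positive with hepatocyte markers for Idh2 (0.36), Ogdh (0.35) and Suclg1 (0.43). It turned negative with upper quartile, quantile, total reads, edgeR and reads without BC071253 for Fh1 (-0.16, -0.051, -0.52, -0.012 and -0.35) and Mdh2 (-0.26, -0.029, -0.61, -0.24 and -0.44), and with DESeq2 for Mdh2 (-0.17). Leaving out 1 library gave -0.42 to 0.090 for Idh2, -0.34 to 0.019 for Ogdh, -0.13 to 0.41 for Fh1 and -0.20 to 0.15 for Mdh2. Isoenzyme differences stayed negative, at -0.997 to -0.54 for Idh1 to Idh2 and -0.83 to -0.60 for Mdh1 to Mdh2. The cause of these shifts was not tested. Each enzyme but Mdh1 had a library with under 20 reads, which limits the precision, and Cs was too low for the main test.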
